A study of Mus musculus with 9 samples.

Results

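CD8+ OT-1 T cells that had spent 24 h with OVA-loaded macrophages and MHC-I-deficient CT2A-TRP2-β2mKO glioma cells were compared with OT-1 T cells kept without either cell type. The 3 co-culture samples and the 3 OT-1 alone samples were chosen by their titles and make up 6 of the 9 samples of the series, which also holds 3 samples of OT-1 T cells with OVA-loaded macrophages. All 750 genes measured were tested. The genes described in detail are those with a group mean of at least 100 normalized counts (6.64 on the log2 scale) in the co-culture or in OT-1 alone, a condition met by 384 of the 750 genes, and they lie outside lists of NK receptors and of checkpoint receptors and ligands. RNA was counted with color-coded probes on the nCounter PanCancer Immune Profiling Panel, and every level below is a log2 normalized count.

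OT-1 mice carry a transgenic T cell receptor for the ovalbumin (OVA) peptide SIINFEKL presented on H2Kb. All groups shared one preparation scheme. OT-1 splenocytes were primed for 48 h with 1 µM SIINFEKL and 50 IU/ml IL-2, purified for CD8+ cells and expanded in IL-2 for 4 days in total, so OT-1 alone samples were previously activated cells, although the series' design text calls the comparison group naive. For the co-cultures, macrophages grown from bone marrow monocytes were loaded with 10 µM peptide for 4 h. By the labels, T cells outnumbered tumor cells 10 to 1 and macrophages 5 to 1, whereas the study's methods state lower ratios for both. The tumor cells, CT2A-TRP2-β2mKO, are a mouse glioma line engineered to carry the antigen TRP2 and to lack β2-microglobulin, the light chain of MHC-I. They have no OVA, and the line was derived from cells sorted singly for loss of H2Kb and H2Db. After co-culture, CD8+ cells were sorted by flow cytometry. The methods name IL-2 in the medium of OT-1 alone and leave its presence in the co-cultures unclear, so IL-2, macrophages, peptide and tumor cells cannot be told apart in this comparison. The labels do not say that the 3 samples of a group came from separate mice or cultures, and p-values therefore measure the spread between these samples, which may be technical.

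A T cell that meets its peptide on an antigen-presenting cell signals through its receptor to 3 families of transcription factors, NFAT, AP-1 and NF-κB. Their targets include cytokines, costimulatory receptors and also inhibitors of the same pathways, such as A20, IκBα and the dual-specificity phosphatases, which limit the signal. Activation and cytokines also reset the chemokine and adhesion receptors with which CD8+ T cells enter lymph nodes or tissues, and IL-2 and IL-12 act on these cells through JAK kinases and STAT factors that SOCS proteins restrain.

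Cd8a, the coreceptor used for the sort, was abundant in all 6 samples. It read 12.49, 12.42 and 12.54 with macrophages and tumor cells and 11.59, 11.64 and 11.53 in OT-1 alone. Cd8a itself passed as higher, as did the T cell genes Cd3e and Cd3g, so none of them is an unchanged reference. The calls of Cd8a, Cd3e and Cd3g ended in 2, 7 and 2 of 21 alternative settings. None of 20 macrophage markers, 12 glioma or mesenchymal markers and 8 B cell markers passed the test. Nor did any of 6 dendritic cell, 8 neutrophil or mast cell and 3 CD4 or regulatory T cell markers. Nearly all of them lay under 100 counts, where only 3 genes of the panel passed, so this is no test of purity. In a fit of only the 6 samples, 1 macrophage and 1 glioma or mesenchymal marker passed as higher. All co-culture samples lay above all OT-1 alone samples for 9 macrophage and 5 glioma or mesenchymal markers, and below for 0. The summed macrophage markers lay between 782 and 910 normalized counts with macrophages and tumor cells and between 550 and 710 in OT-1 alone, and 1 of the 20, Cd68, reached the floor of 100. The summed glioma or mesenchymal markers lay between 632 and 714 with macrophages and tumor cells and between 381 and 492 in OT-1 alone, and 2 of the 12 reached the floor. The part of carried-over RNA in the results was not tested. In these bulk samples a change in the number of cells that express a gene and a change in RNA per cell cannot be told apart. Recovered raw totals were 697256 to 897920 counts with macrophages and tumor cells and 733877 to 1185957 counts in OT-1 alone, so counting error at 100 normalized counts was between 10.2% and 11.7% with macrophages and tumor cells and between 8.25% and 10.6% in OT-1 alone.

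With macrophages and tumor cells, 109 of 750 genes (14.5%) passed as higher against OT-1 alone, and 29 (3.87%) passed as lower, by limma at a Benjamini-Yekutieli adjusted p below 0.05, 18.4% in all. Samples of the groups did not overlap for 428 genes (57.1%), of which 326 (43.5%) lay above OT-1 alone and 102 (13.6%) below. The number of passing genes with overlapping groups was 0. Separate groups in a gene described below are therefore no further support for its call. The whole panel leaned upward, with a median log2 fold change of 0.40 over all genes and 0.21 over genes averaging at least 100 counts. When each sample was centred on the genes at 100 counts or more, which removed a shift of 0.30, 67 genes were higher (8.93%) and 70 were lower (9.33%), so the balance between rises and falls depended on the scaling. Log2 fold changes of the genes named below are not centred, and results after this centring are given as counts per list. Whether a gene changed by about the size of that shift therefore depends on the scaling. Macrophage replicate 2, an exceptionally shallow library of 131875 raw counts, enters the comparison only through the shared estimate of spread, and without it 175 genes were higher and 48 were lower.

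**Figure D1:**
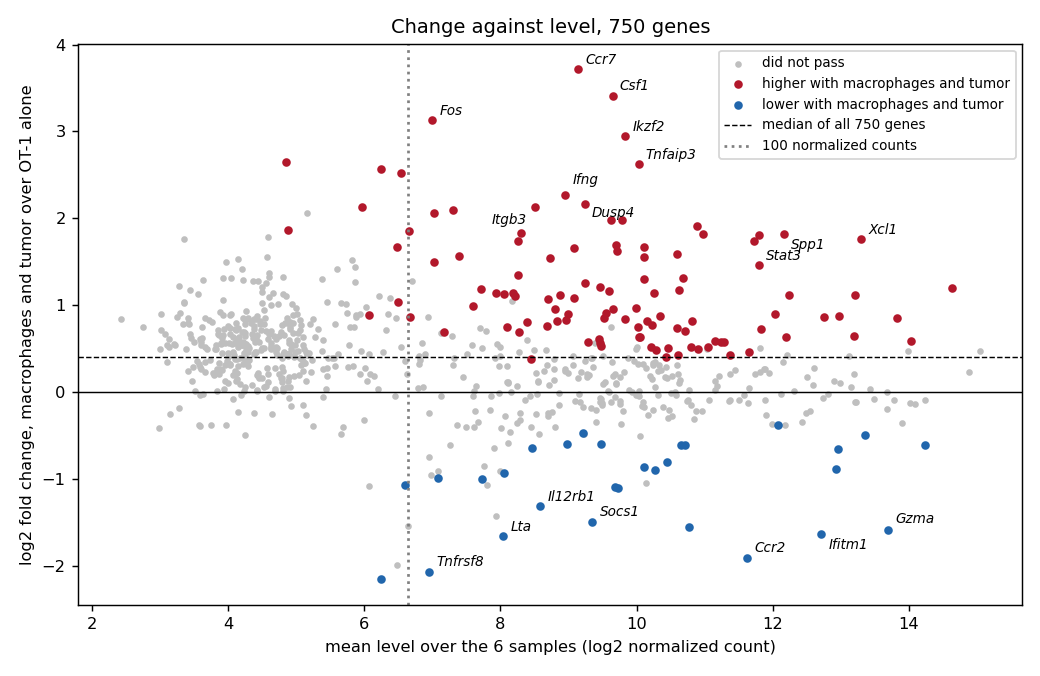
Mean log2 normalized count over the 6 samples (x axis) against log2 fold change of macrophages and tumor over OT-1 alone (y axis) for 750 genes, with genes past the test in red (higher) or blue (lower), the rest in gray, a dashed line at the median of all genes (0.40) and a dotted line at 100 normalized counts. Ccr7 stands highest at 3.71, and of the labeled falls Ccr2 (-1.90), Ifitm1 (-1.63) and Gzma (-1.58) have the highest mean levels.

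The 20 largest rises ranged between 1.74 and 3.71 on the log2 scale and the 20 largest falls between -2.06 and -0.60. Among these 40 genes, 14 kept their call in each alternative setting that could be computed for them, 7 rises (Ccr7, Csf1, Ikzf2, Tnfaip3, Ifng, Dusp4 and Cx3cr1) and 7 falls (Tnfrsf8, Ccr2, Lta, Ifitm1, Gzma and Socs1 among them). Leaving out a single sample ended the calls of Fos, Ccl9, Cd83, Ada, Itga1, Icosl, Il2ra and Traf3 for at least 1 of the 9 samples. Of other genes named below, Egr2, Il18r1 and Tnfrsf9 lost their calls in 8 of 21 settings and Tnfsf8 and Cxcr6 in 7.

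**Figure D2:**
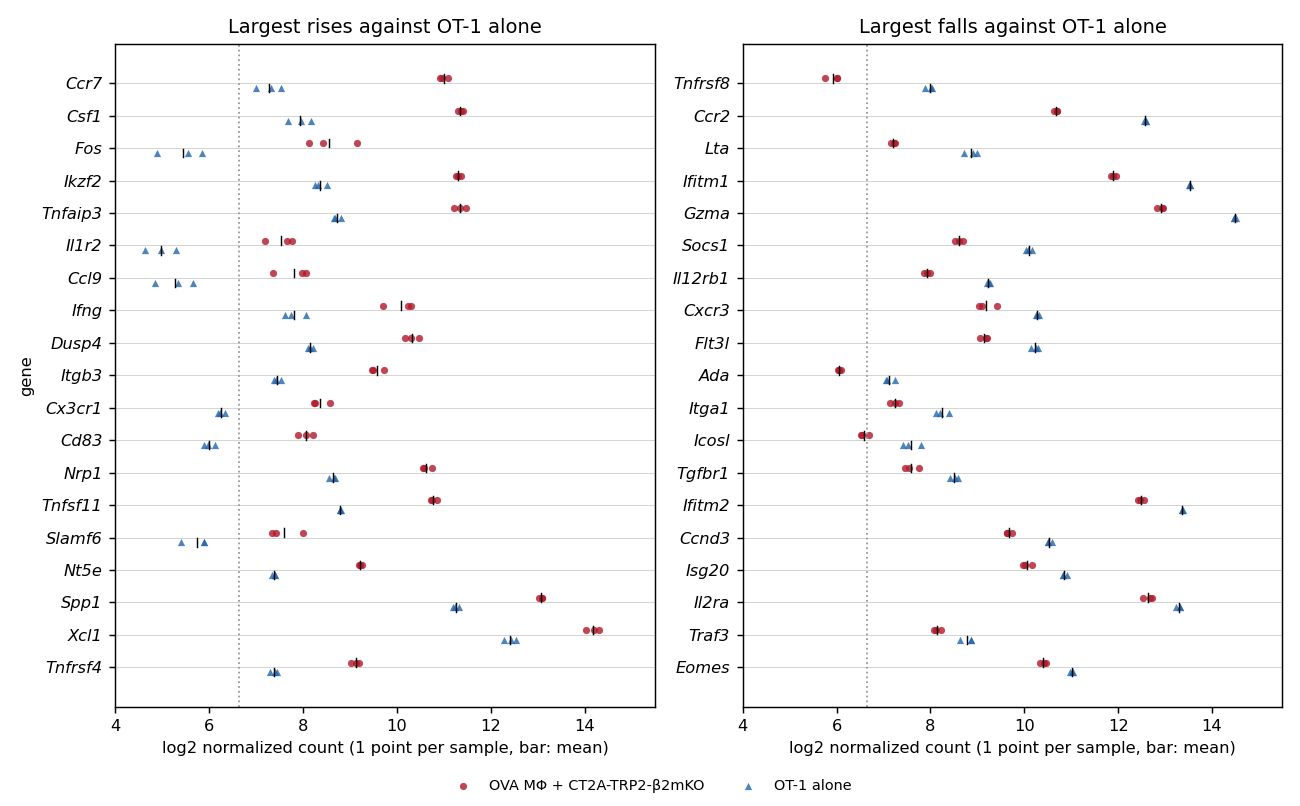
Levels of 19 of the 20 largest rises (left) and 19 of the 20 largest falls (right) in log2 normalized counts (x axis), where each circle is a sample with OVA-loaded macrophages and CT2A-TRP2-β2mKO cells, each triangle is an OT-1 alone sample, short bars are means of 3 samples and the dotted line marks 100 normalized counts. Only genes with separate groups were eligible, so the separation of every gene drawn follows from that rule. Fos, Il1r2, Ccl9, Cx3cr1, Cd83 and Slamf6 lie below 100 counts in all OT-1 alone samples.

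Among transcription factors induced by receptor signaling or tied to T cell lineage, 11 of 39 measured rose and 1 fell. Their median log2 fold change was 0.37, against 0.40 over all genes, and after centring on the abundant genes 6 rose and 8 fell. Ikzf2, which encodes Helios, read 11.30, 11.25 and 11.37 with macrophages and tumor cells and 8.25, 8.32 and 8.51 in OT-1 alone. The highest OT-1 alone sample stayed far below the lowest co-culture sample, and the log2 fold change was 2.95 (SE 0.10, limma adjusted p = 2.53e-05). Fos, the AP-1 subunit that partners Jun, read 9.15, 8.12 and 8.42 with macrophages and tumor cells and 4.90, 5.56 and 5.84 in OT-1 alone. Replicate 1 of the co-culture was the highest, the groups did not overlap, and the log2 fold change of 3.13 had a wide SE of 0.58 (limma adjusted p = 0.0382). With values under 100 counts set to 100, the Fos difference was 1.92 on the log2 scale, and its call ended in 10 of 21 alternative settings. Jun itself differed by 0.60 and did not pass.

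Egr1, an early-response factor downstream of MAP kinases, read 10.58, 10.45 and 10.56 with macrophages and tumor cells and 8.68, 8.87 and 9.15 in OT-1 alone. Every co-culture sample exceeded every OT-1 alone sample, with a log2 fold change of 1.63 (SE 0.14). Irf8, an interferon regulatory factor also expressed in effector CD8+ T cells, read 11.38, 11.42 and 11.35 with macrophages and tumor cells and 9.73, 9.84 and 9.82 in OT-1 alone, a tightly grouped difference of 1.59 (SE 0.12). Runx1, a regulator of T cell development, rose by 1.15, Pou2f2, the octamer factor Oct-2, by 1.13, Tcf7, which encodes the memory-associated factor TCF-1, by 0.96, Egr2 by 0.87 and Nfatc1 by 0.82. Eomes, a T-box factor of effector and memory CD8+ cells, was the single member that fell, with levels of 10.42, 10.34 and 10.46 with macrophages and tumor cells and 11.03, 11.02 and 10.98 in OT-1 alone. Its fall of -0.60 (SE 0.08) equaled those of Slamf7 and Vim within rounding. The related effector factors Tbx21 (-0.35) and Prdm1 (-0.27) and the activation factors Irf4 (0.32) and Batf (-0.18) did not pass.

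Among NF-κB subunits, inhibitors and upstream adaptors, 7 of 27 rose and 1 fell, and centring left 5 higher and 1 lower. Their median was 0.23, against 0.40 over all genes. Of the 27 members 25 reached the floor, where nearly all rises of the panel lay. The count therefore does not set this list apart from other genes at the floor. The members with the largest rises were inhibitors of the pathway and a subunit. Tnfaip3, which encodes the ubiquitin-editing enzyme A20, read 11.47, 11.21 and 11.34 with macrophages and tumor cells and 8.68, 8.66 and 8.81 in OT-1 alone. The groups were more than 2 log2 units apart at their nearest samples, and the log2 fold change was 2.62 (SE 0.10, limma adjusted p = 3.46e-05). Nfkbia, which encodes IκBα, the protein that holds NF-κB in the cytoplasm, read 9.92, 9.86 and 9.84 with macrophages and tumor cells and 8.57, 8.60 and 8.67 in OT-1 alone. This difference of 1.26 (SE 0.08) was again far wider than the spread within either group. Rel, the c-Rel subunit, rose by 1.14 and Nfkb2, the p100 precursor of the alternative pathway, by 0.82. Irak2 and Ripk2, kinases of the innate receptor branches, each rose by 0.76. Nfkb1 (0.19), Rela (0.10) and Relb (0.17) did not pass. Traf3, an adaptor that restrains the alternative pathway, was the member that fell, with 8.12, 8.23 and 8.08 with macrophages and tumor cells and 8.62, 8.87 and 8.87 in OT-1 alone (log2 fold change -0.64, SE 0.11, limma adjusted p = 0.0303).

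Promoter sequences of 4 of the genes that rose and of Traf3 are shown because each holds, on one of the strands, the NF-κB motif of 3 G, any 2 bases, 3 T and 2 C. They are examples only. Other passing genes with the motif near their start are Nfkb2, Ccl9 and Tnfrsf9, which rose, and Vim and Il4ra, which fell. Nfkbia and Rel lie outside the strongest rises counted below. The 250 bases before the start of each gene are given 5′ to 3′ on the strand of the gene, taken from RefSeq on GRCm38.p6, with the bases that match the motif in capitals. The windows are chr10:19015411-19015660 on the minus strand for Tnfaip3, chr12:55492648-55492897 on the minus strand for Nfkbia, chr11:23770970-23771219 on the minus strand for Rel, chr3:107760470-107760719 on the minus strand for Csf1 and chr12:111166120-111166369 on the plus strand for Traf3.
Tnfaip3: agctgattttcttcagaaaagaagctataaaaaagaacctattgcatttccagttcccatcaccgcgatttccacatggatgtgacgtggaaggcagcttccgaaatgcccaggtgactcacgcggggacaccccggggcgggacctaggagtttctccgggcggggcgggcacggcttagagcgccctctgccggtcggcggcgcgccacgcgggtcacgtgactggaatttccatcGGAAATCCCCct
Nfkbia: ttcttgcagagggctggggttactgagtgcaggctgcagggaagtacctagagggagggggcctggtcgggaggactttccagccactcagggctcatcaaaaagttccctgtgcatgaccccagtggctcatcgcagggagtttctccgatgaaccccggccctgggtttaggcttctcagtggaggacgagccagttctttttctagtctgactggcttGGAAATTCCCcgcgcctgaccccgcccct
Rel: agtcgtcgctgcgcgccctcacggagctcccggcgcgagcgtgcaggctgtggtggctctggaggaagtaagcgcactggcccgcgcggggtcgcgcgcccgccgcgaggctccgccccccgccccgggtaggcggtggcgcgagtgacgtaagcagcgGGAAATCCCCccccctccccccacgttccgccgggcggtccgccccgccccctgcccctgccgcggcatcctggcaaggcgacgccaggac
Csf1: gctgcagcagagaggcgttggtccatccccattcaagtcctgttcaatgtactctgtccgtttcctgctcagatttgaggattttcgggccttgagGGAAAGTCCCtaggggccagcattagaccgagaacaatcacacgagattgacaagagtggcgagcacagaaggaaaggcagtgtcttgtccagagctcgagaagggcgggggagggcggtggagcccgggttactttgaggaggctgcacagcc
Traf3: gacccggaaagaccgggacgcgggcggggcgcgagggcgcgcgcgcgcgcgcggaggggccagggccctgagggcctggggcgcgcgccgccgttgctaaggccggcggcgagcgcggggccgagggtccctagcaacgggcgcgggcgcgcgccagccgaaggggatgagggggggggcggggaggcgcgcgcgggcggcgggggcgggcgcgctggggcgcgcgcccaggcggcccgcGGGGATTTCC
The match begins 12 bases before the start of Tnfaip3, 29 before that of Nfkbia, 91 before that of Rel, 154 before that of Csf1 and 10 before that of Traf3. In windows that also took in the first bases after the start, 3 of the 14 strongest rises with a RefSeq promoter held the motif (21.4%), as did 1 of 18 strongest falls (5.56%), 36 of 549 panel genes (6.56%) and 512 of 27025 genes in all (1.89%). The AP-1 motif TGANTCA was found in 2 of 14 rises (14.3%), 1 of 18 falls (5.56%) and 13.3% of panel genes, and it also lies in the Tnfaip3 window. A pair of interferon-type repeats, TTTC, any 2 bases and TTTC again, was found in 1 of 14 rises (7.14%), Spp1, in 5 of 18 falls (27.8%), namely Flt3l, Ifitm2, Eomes, Gzma and Socs1, and in 9.11% of panel genes. The CRE motif TGACGTCA was in none of these rises or falls and in 1.46% of panel genes. All motifs were searched on both strands, and a match describes the letters only.

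Among MAP kinases and their phosphatases, the largest rises were those of a pair of phosphatases. Dusp4, a nuclear phosphatase of MAP kinases, read 10.48, 10.31 and 10.18 with macrophages and tumor cells and 8.10, 8.15 and 8.22 in OT-1 alone, and Dusp6, its cytoplasmic relative, read 10.93, 10.75 and 10.96 with macrophages and tumor cells and 9.23, 9.34 and 9.41 in OT-1 alone. Neither gene had overlapping groups, and the log2 fold change was 2.17 for Dusp4 (SE 0.13) and 1.55 for Dusp6 (SE 0.09). Of 20 kinases and phosphatases on the list, 4 rose and none fell (median 0.12), and after centring 2 rose and 4 fell. The floor was reached by 18 of the 20, so the count does not set the list apart from other genes at the floor. Map3k1 (0.62) and Mapk14 (0.50), the kinase p38α, also passed, but the call of Map3k1 ended in 11 of 21 settings, and that of Mapk14 ended in 10 and reversed in 1.

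In the JAK-STAT pathway, 4 of 12 genes rose and 1 fell (median 0.29), and after centring 2 rose and 1 fell. Stat3, the factor downstream of IL-6, IL-10 and IL-21, read 12.60, 12.53 and 12.45 with macrophages and tumor cells and 11, 11.04 and 11.15 in OT-1 alone. The difference of 1.46 (SE 0.11) far exceeded the spread within groups. Stat4, which transmits IL-12 signals, rose by 0.97. Socs1, the suppressor of JAK kinases, went the other way, with 8.69, 8.60 and 8.53 with macrophages and tumor cells and 10.08, 10.17 and 10.04 in OT-1 alone. Its log2 fold change was -1.49 (SE 0.13, limma adjusted p = 0.000977), and all co-culture samples were below all OT-1 alone samples.

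Of 40 cytokine receptor genes, 9 rose and 4 fell (median 0.46), and after centring 4 rose and 6 fell. The chains of the IL-12 receptor moved in opposite directions. Il12rb1, the chain shared with the IL-23 receptor, read 7.99, 7.93 and 7.86 with macrophages and tumor cells and 9.20, 9.25 and 9.26 in OT-1 alone (log2 fold change -1.31, SE 0.09), and Il12rb2, the chain that recruits STAT4, read 11.04, 11.03 and 10.82 with macrophages and tumor cells and 10.24, 10.19 and 10.23 in OT-1 alone (0.74, SE 0.09). Groups were separate for each chain. Il2ra, the high-affinity IL-2 receptor chain, read 12.71, 12.67 and 12.53 with macrophages and tumor cells and 13.24, 13.31 and 13.32 in OT-1 alone, a fall of -0.65 (SE 0.11), while Il2rb (0.47), Il2rg (0.23) and Il7r (-0.10) did not pass. Tgfbr1, a receptor chain for TGF-β, fell by 0.93 and Il4ra by 0.60.

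Ifngr1, the ligand-binding chain of the interferon-γ receptor, read 13.37, 13.34 and 13.52 with macrophages and tumor cells and 12.59, 12.51 and 12.50 in OT-1 alone, 0.88 higher (SE 0.08). Kit, the receptor for stem cell factor, rose by 1.54. Il1r2, a decoy receptor that binds IL-1 without signaling, read 7.65, 7.76 and 7.19 with macrophages and tumor cells and 4.97, 4.64 and 5.30 in OT-1 alone. All 3 OT-1 alone values were under 100 counts, and the fitted difference of 2.56 (SE 0.25) was 0.89 with such values set to 100. Il6st, the shared chain gp130, rose by 1.04, and the IL-18 receptor chains Il18r1 and Il18rap by 0.58 and 0.59. The lowest values of these chains across the alternative settings were 0.07 and 0.08, and Il18rap lost its call in 3 of 21.

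Of 49 secreted cytokine genes, 4 were higher, a share below the 14.5% of all genes, and 2 were lower, a share near the 3.87% of all genes (median 0.58, the same counts after centring). Only 12 of the 49 reached the floor in either group. Nearly all calls of the panel fell on genes at the floor, so the low share is no sign that cytokine genes changed less. Csf1, the growth factor of macrophages also called M-CSF, read 11.40, 11.30 and 11.36 with macrophages and tumor cells and 7.68, 7.96 and 8.18 in OT-1 alone. The co-culture samples lay within 0.10 of each other and more than 3 log2 units above OT-1 alone, for a log2 fold change of 3.41 (SE 0.16, limma adjusted p = 5.49e-05). Its receptor Csf1r, a defining macrophage gene, read 4.88, 4.66 and 4.69 with macrophages and tumor cells and 4.03, 3.76 and 4.26 in OT-1 alone, all under the floor and not past the test.

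Ifng, the main effector cytokine of CD8+ T cells, read 10.30, 10.24 and 9.71 with macrophages and tumor cells and 7.62, 7.75 and 8.07 in OT-1 alone. Co-culture replicate 3 was the lowest of its group and still above all OT-1 alone samples, and the log2 fold change was 2.27 (SE 0.20). Spp1, which encodes osteopontin, read 13.10, 13.10 and 13.02 with macrophages and tumor cells and 11.23, 11.20 and 11.33 in OT-1 alone (1.82, SE 0.08). Ebi3, a subunit shared by IL-27 and IL-35, rose by 1.11. Lta, or lymphotoxin-α, read 7.25, 7.22 and 7.16 with macrophages and tumor cells and 8.71, 8.99 and 8.90 in OT-1 alone. All co-culture samples were below all OT-1 alone samples (log2 fold change -1.66, SE 0.13). Flt3l, the growth factor of dendritic cells, fell by 1.08. Tnf (-0.41) and Csf2 (0.74) did not pass, and Il2 was under the floor in every one of the 6 samples.

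Among chemokines, 4 of 36 rose and none fell (median 0.50), with 3 rising after centring. Only 6 of the 36 reached the floor in either group, and the counts cover members under it too. The rises include Ccl2, whose log2 fold change lay between 0.0 and 2.81 across the alternative settings. Its call ended in 1 of 20. Xcl1, which attracts cross-presenting dendritic cells through XCR1, was the most abundant riser among the 20 largest, at 14.21, 14.30 and 14.04 with macrophages and tumor cells and 12.29, 12.43 and 12.54 in OT-1 alone. These groups were separate, with a log2 fold change of 1.76 (SE 0.13). Ccl9, a CCR1 ligand also made by myeloid cells, read 8.06, 7.98 and 7.36 with macrophages and tumor cells and 4.84, 5.34 and 5.66 in OT-1 alone. All OT-1 alone values were below 100 counts, and the fitted 2.52 (SE 0.37) was 1.16 with such values set to 100. Ccl1, a CCR8 ligand, was 0.52 higher, a call that ended in 11 of 21 settings, while the inflammatory chemokines Ccl3 (0.39), Ccl4 (-0.20) and Ccl5 (-0.23) did not pass.

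Chemokine receptors were divided evenly, with 4 of 18 higher and 4 lower and the same counts after centring (median 0.64). The floor was reached by 8 of the 18, and the counts cover members under it too. The rises include Cxcr5, whose log2 fold change lay between 0.0 and 2.12 across the alternative settings. Its call ended in 8 of 20. Ccr7, the receptor for lymph node chemokines, showed the largest rise of all, at 11.10, 10.92 and 10.97 with macrophages and tumor cells and 7.0, 7.32 and 7.53 in OT-1 alone. The groups were separated by more than 3 log2 units, and the level was 13.1-fold that of OT-1 alone (log2 fold change 3.71, SE 0.15, limma adjusted p = 3.46e-05). Cx3cr1, the fractalkine receptor of effector cells, read 8.26, 8.23 and 8.57 with macrophages and tumor cells and 6.34, 6.18 and 6.24 in OT-1 alone, a difference of 2.10 (SE 0.20), or 1.71 with values under 100 counts set to 100. Ccrl2, an atypical receptor that binds chemerin, rose by 1.5.

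Ccr2, Cxcr3 and Cxcr6, receptors for inflammatory chemokines, fell. Ccr2 read 10.69, 10.64 and 10.70 with macrophages and tumor cells and 12.59, 12.54 and 12.60 in OT-1 alone (log2 fold change -1.90, SE 0.06, limma adjusted p = 2.53e-05). Within each group its samples lay within 0.10 of each other. Cxcr3, the receptor for interferon-induced chemokines, read 9.03, 9.09 and 9.41 with macrophages and tumor cells and 10.32, 10.24 and 10.27 in OT-1 alone (-1.10, SE 0.11). Cxcr6 fell by 0.49, and Cxcr4 differed by -0.04 without passing.

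Homing and memory-like genes had the highest median of the lists, 1.69, with 6 of 9 higher and none lower, against 14.5% and 3.87% of all genes. The list was written with earlier results of these data known, so its rank is no independent result. Centring gave 6 higher and 2 lower. Cd27, a costimulatory receptor kept by memory precursors, read 10.52, 10.51 and 10.58 with macrophages and tumor cells and 8.80, 8.84 and 8.90 in OT-1 alone (1.69, SE 0.09). Il7r, the receptor that maintains memory cells, was among those that did not pass against OT-1 alone. In the direct comparison given further below, Il7r was 0.96 higher with tumor cells than with macrophages only (limma adjusted p = 0.00274). That call ended in 1 of 20 alternative settings.

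Adhesion genes included 8 higher and 1 lower of 41 (median 0.40), and centring gave 5 higher and 3 lower. Itgb3, the integrin chain that pairs with αV in the vitronectin receptor, read 9.73, 9.48 and 9.50 with macrophages and tumor cells and 7.42, 7.38 and 7.53 in OT-1 alone (2.13, SE 0.10). Nrp1, or neuropilin-1, a receptor for semaphorins and VEGF, read 10.57, 10.56 and 10.74 with macrophages and tumor cells and 8.66, 8.56 and 8.69 in OT-1 alone (1.99, SE 0.10). Groups of both genes were separate by at least 1.8 log2 units. Alcam, the ligand of CD6, rose by 1.35, Pecam1 by 1.21 and the laminin-binding chain Itga6 by 1.08. Itga1, the collagen-binding chain of resident memory cells, read 7.24, 7.13 and 7.34 with macrophages and tumor cells and 8.20, 8.40 and 8.11 in OT-1 alone, a fall of -1.0 (SE 0.17). Vim, the intermediate filament protein vimentin, fell by 0.60.

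Of 16 TNF family ligands, 5 rose and 1 fell (median 0.67), or 2 and 2 after centring, and of 20 costimulatory and TNF family receptors 5 rose and 2 fell (median 0.51), or 3 and 2 after centring. Tnfsf11, the ligand RANKL, read 10.75, 10.72 and 10.85 with macrophages and tumor cells and 8.78, 8.78 and 8.82 in OT-1 alone (1.98, SE 0.08). Tnfrsf4, the receptor OX40, read 9.20, 9.14 and 9.03 with macrophages and tumor cells and 7.41, 7.44 and 7.29 in OT-1 alone (1.74, SE 0.16), and its ligand gene Tnfsf4 read 8.85, 8.96 and 8.44 with macrophages and tumor cells and 7.5, 7.67 and 7.66 in OT-1 alone (1.14, SE 0.14). None of these groups overlapped.

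The receptor CD30 and its ligand moved apart. Tnfrsf8, which encodes CD30, showed the largest fall, at 6.0, 5.75 and 6.0 with macrophages and tumor cells and 7.89, 8.01 and 8.04 in OT-1 alone. All 3 co-culture values were under 100 counts, and the log2 fold change of -2.06 (SE 0.14) was -1.34 with such values set to 100. The CD30 ligand gene Tnfsf8 read 7.53, 7.55 and 7.47 with macrophages and tumor cells and 6.76, 6.95 and 6.76 in OT-1 alone, 0.69 higher. Tnfrsf18, or GITR, rose by 1.16 and Tnfrsf9, or 4-1BB, by 0.90, while Cd28 (0.52) and Icos (0.26) did not pass. Icosl, the ICOS ligand, read 6.70, 6.55 and 6.53 with macrophages and tumor cells and 7.41, 7.80 and 7.52 in OT-1 alone, a fall of -0.98 near the floor.

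Against the 14.5% of all genes called higher and 3.87% called lower, the shares called were near or below these values for secreted cytokines, chemokines, complement, cell death and cell cycle genes, and for rises among interferon response and MHC class I genes. Of the 109 higher genes all but 3 lay among the 384 genes at the floor, and 0 lower genes lay under it. The lists differ in members at the floor. It was reached by 12 of 49 secreted cytokines, 6 of 36 chemokines and 3 of 37 complement genes. Of transcription factors 30 of 39 reached it, of NF-κB genes 25 of 27 and of receptor complex genes 27 of 30. Low shares among secreted cytokines, chemokines and complement genes are therefore no sign that these lists changed less than other genes at the floor. High shares in lists mostly at the floor are likewise no sign of a stronger response. Shares among members at the floor were not compared. The plot of calls by gene list gives the counts of all lists.

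**Figure D3:**
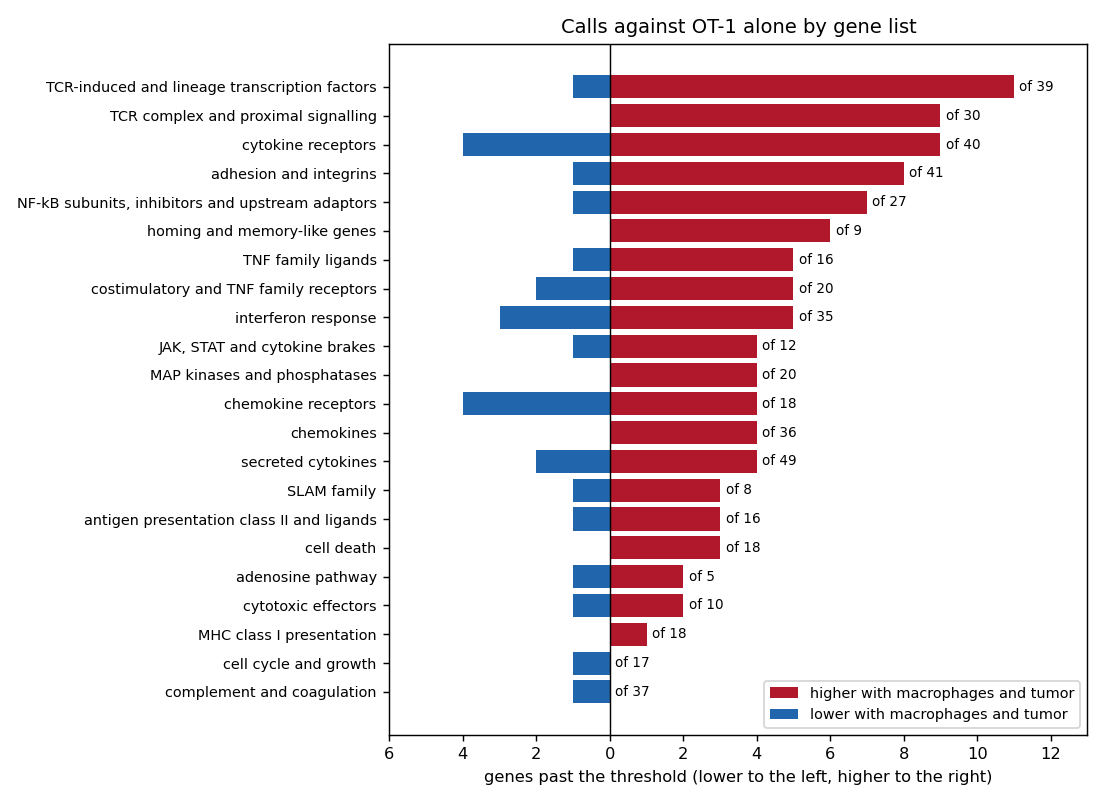
Genes past the threshold against OT-1 alone in each of 22 gene lists, where bars to the right count genes higher with macrophages and tumor cells, bars to the left count genes lower, and the number beside each bar is the number of list members measured. Transcription factors hold 11 higher genes of 39, and chemokine receptors and cytokine receptors hold 4 lower genes each.

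Of 5 genes for enzymes and the receptor of the adenosine pathway, which dampens T cells, 2 were higher and 1 was lower. After centring the counts were 2 and 2. The median was 0.34, against 0.40 over all genes. Nt5e, the ectoenzyme CD73 that forms adenosine from AMP, read 9.19, 9.21 and 9.26 with macrophages and tumor cells and 7.35, 7.41 and 7.41 in OT-1 alone. Samples within a group differed by less than 0.10, and the log2 fold change was 1.83 (SE 0.10). Adora2a, the main adenosine receptor of T cells, rose by 0.95. Ada, the deaminase that removes adenosine, read 6.09, 6.06 and 6.03 with macrophages and tumor cells and 7.05, 7.25 and 7.08 in OT-1 alone, a fall of -1.07 (SE 0.20) that was -0.48 with values under 100 counts set to 100 and lost its call in 10 of 20 settings. Entpd1, the enzyme CD39 upstream of CD73, differed by -0.64 and did not pass.

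Of 16 genes of class II presentation and its ligands, 3 rose and 1 fell (median 0.54), or 2 and 1 after centring. Cd83, a surface protein of activated lymphocytes and dendritic cells, read 8.22, 8.06 and 7.90 with macrophages and tumor cells and 5.90, 5.97 and 6.13 in OT-1 alone (2.06, SE 0.33, or 1.42 with values under 100 counts set to 100). Cd74, the invariant chain, read 7.38, 7.26 and 7.30 with macrophages and tumor cells and 5.45, 5.70 and 5.76 in OT-1 alone (1.68, SE 0.15). Macrophages express these genes too, and the macrophage marker sum of 782 to 910 counts with macrophages and tumor cells, against 550 to 710 in OT-1 alone, moved the same way. The part of carried-over RNA in Cd83, Cd74 and Ccl9 was not tested. In the SLAM family, most of whose receptors bind their own kind on neighboring cells, 3 of 8 rose and 1 fell (median 0.40), with the same counts after centring. Slamf6 read 7.43, 7.35 and 8.0 with macrophages and tumor cells and 5.40, 5.90 and 5.90 in OT-1 alone (1.86, SE 0.22, or 0.95 with values under 100 counts set to 100), and Slamf7, a receptor of cytotoxic effectors, was the member that fell.

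Interferon response genes moved in both directions. Of 35, 5 rose and 3 fell (median 0.29), and centring gave 3 higher and 4 lower. Ifitm1, a membrane protein that blocks virus entry, read 11.88, 11.84 and 11.96 with macrophages and tumor cells and 13.51, 13.53 and 13.54 in OT-1 alone (log2 fold change -1.63, SE 0.08, limma adjusted p = 7.93e-05). Its close paralog Ifitm2 read 12.55, 12.47 and 12.43 with macrophages and tumor cells and 13.36, 13.38 and 13.37 in OT-1 alone (-0.89, SE 0.07). The OT-1 alone samples agreed within 0.03 for both genes, and how far a probe for one also captures the other was not tested. Isg20, an RNA exonuclease, fell by 0.80. Irf7, the factor that amplifies type I interferon, rose by 1.07 and Xaf1, an interferon-induced cell death gene, by 1.12.

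Cytotoxic genes were also mixed, with 2 of 10 higher and 1 lower (median -0.10), or 1 and 2 after centring. Gzma, or granzyme A, read 12.95, 12.94 and 12.82 with macrophages and tumor cells and 14.51, 14.47 and 14.47 in OT-1 alone, a fall of -1.58 (SE 0.10). Prf1, which encodes the pore-forming protein perforin, read 10.96, 10.91 and 10.42 with macrophages and tumor cells and 9.39, 9.50 and 9.50 in OT-1 alone, a rise of 1.30. Gzmb (-0.35) and Fasl (-0.10) did not pass, and Gzmb had its lowest co-culture value, 13.31, in replicate 3.

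Of 30 genes of the receptor complex and its proximal signaling, 9 rose and none fell (median 0.37), but after centring 2 rose and 2 fell. The floor was reached by 27 of the 30, so the count does not set the list apart from other genes at the floor. Cd5, which tunes receptor signaling, read 11.16, 11.15 and 11.32 with macrophages and tumor cells and 10.08, 10.07 and 9.96 in OT-1 alone (1.17, SE 0.10). Cd69, an early activation receptor that retains cells in tissue, read 11.58, 11.16 and 11.28 with macrophages and tumor cells and 9.98, 10.04 and 10.07 in OT-1 alone (1.31, SE 0.13). Groups were separate for each of them. In cell cycle and growth, none of 17 rose and 1 fell, or 5 after centring (median -0.15). That gene, Ccnd3, the G1 cyclin D3, read 9.64, 9.74 and 9.64 with macrophages and tumor cells and 10.50, 10.51 and 10.60 in OT-1 alone (-0.86, SE 0.07). Of 18 genes of MHC class I presentation, 1 rose and none fell (median 0.04), or 1 and 4 after centring, and of 18 cell death genes 3 rose and none fell (median 0.12), or 3 and 5 after centring. Complement and coagulation genes, nearly all under the floor, had none higher and 1 lower of 37.

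At the edge of the floor, Fas (6.68), Vegfa (6.73) and Sh2d1b1 (6.78) were the genes just inside by the mean of the higher group, and Gzmk (6.60), Ccr8 (6.59) and Cd70 (6.59) were just outside. Cd70, the ligand of CD27, averaged 6.59 with macrophages and tumor cells and 5.06 in OT-1 alone. The lists of NK receptors and of checkpoint receptors and ligands hold 37 measured genes, of which 12 were higher and 2 were lower.

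Whether the glioma cells added anything to the macrophages was addressed by the direct comparison of the co-culture with tumor cells and the co-culture with macrophages only, in the same fit. Here 20 of 750 genes were higher with tumor cells (2.67%) and 4 were lower (0.533%), 3.2% in all, and without macrophage replicate 2 the counts were 29 and 5. This comparison shares the samples with tumor cells with the one above, and comparisons against OT-1 alone share the OT-1 alone samples, so their values are given side by side only.

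**Figure D4:**
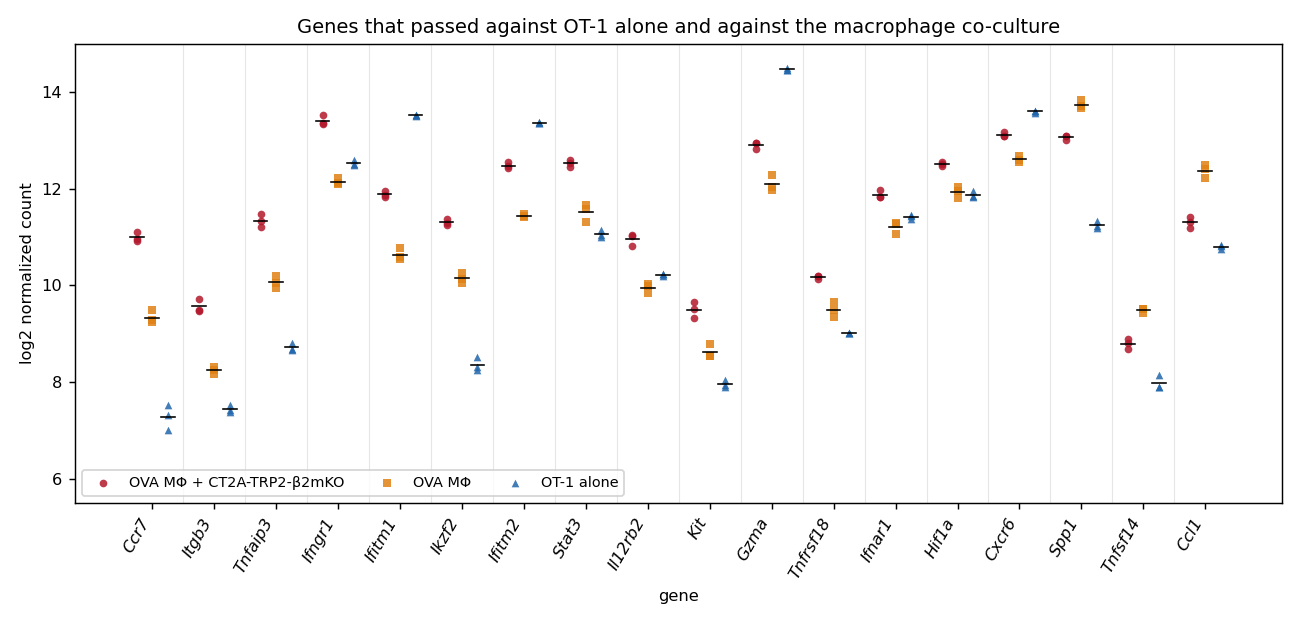
Levels of 18 genes at the floor, outside the NK receptor and checkpoint lists, that passed against OT-1 alone and against macrophages only, in log2 normalized counts (y axis), where circles are samples with OVA-loaded macrophages and CT2A-TRP2-β2mKO cells, squares are samples with OVA-loaded macrophages only, triangles are OT-1 alone and bars are means of 3 samples. Ccr7, Itgb3 and Tnfaip3 are highest with tumor cells and lowest in OT-1 alone, and Ifitm1 and Ifitm2 are highest in OT-1 alone and lowest with macrophages only.

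Ccr7 read 11.10, 10.92 and 10.97 with macrophages and tumor cells and 9.24, 9.49 and 9.28 with macrophages only, 1.66 higher (SE 0.15, limma adjusted p = 0.00509). Itgb3 read 9.73, 9.48 and 9.50 with macrophages and tumor cells and 8.25, 8.17 and 8.32 with macrophages only, 1.32 higher (SE 0.10). Both genes with macrophages only lay between the other groups, as did Tnfaip3, which was 1.27 higher with tumor cells, Ikzf2 (1.16) and Tnfrsf18 (0.68). Stat3 read 12.60, 12.53 and 12.45 with macrophages and tumor cells and 11.66, 11.31 and 11.58 with macrophages only, 1.01 higher (SE 0.11).

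For a further set, macrophages only had the lowest levels. Ifngr1 read 13.37, 13.34 and 13.52 with macrophages and tumor cells and 12.10, 12.13 and 12.22 with macrophages only, 1.26 higher (SE 0.08), and Il12rb2 was 1.01 and Ifnar1, a chain of the type I interferon receptor, 0.67 higher. Ifitm1 read 11.88, 11.84 and 11.96 with macrophages and tumor cells and 10.60, 10.77 and 10.54 with macrophages only, 1.26 higher (SE 0.08), so that the samples with tumor cells were intermediate between macrophages only and OT-1 alone. The same order held for Ifitm2 (1.04 higher), Gzma (0.80) and Cxcr6 (0.50). In 3 genes macrophages only were highest, with differences of -1.07 for Ccl1, -0.69 for Tnfsf14, the ligand LIGHT, and -0.67 for Spp1. Every call of the direct comparison ended after centring on the median of all genes, which left 0 higher and 0 lower. That median was 7.8 in the shallow macrophage replicate 2, against 6.3 and 6.48 in macrophage replicates 1 and 3. Over genes averaging at least 100 counts, the medians were 9.69 in macrophage replicate 2 and 9.67 and 9.66 in the others. The part of this 1 sample in the lost calls was not tested. With the replicate number as a block, the direct calls of Ccr7 and Il12rb2 also ended. Those of Tnfrsf18, Ifnar1, Gzma, Cxcr6, Tnfsf14, Spp1, Kit and Hif1a ended in 10 to 12 of 20 alternative settings and that of Stat3 in 8, leaving out 1 sample among them.

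Other leading genes did not pass in the direct comparison. Csf1 read 11.40, 11.30 and 11.36 with macrophages and tumor cells and 11.25, 10.86 and 11.24 with macrophages only, a difference of 0.24 with a 95% interval of -0.14 to 0.61. Ccr2 differed by -0.03 (-0.18 to 0.12), Socs1 by -0.01 (-0.32 to 0.30), Tnfrsf8 by 0.03 (-0.30 to 0.37) and Tnfsf11 by 0.15 (-0.04 to 0.33). Fos differed by 1.44 with an interval of 0.08 to 2.79, and macrophage replicate 2, at 8.40, was far above the other macrophage samples at 6.34 and 6.64. Nrp1 (-0.65, limma adjusted p = 0.0786) and Xcl1 (-0.65, limma adjusted p = 0.195) were lower with tumor cells without passing.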

How the data were processed

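RNA of sorted CD8+ OT-1 T cells was counted on an nCounter MAX instrument with the PanCancer Immune Profiling Panel. Normalization and quality control were done by the authors in nSolver. They deposited log2 normalized counts of 750 genes in 9 samples, with no raw counts, reference genes or normalization factors used here. Raw depth was recovered from the steps between low values, which matched whole multiples of 1 step per sample for 100% of low values within 0.0055 log2 units. Group means were fitted with limma 3.58.1 in R 4.3.3 (lmFit, eBayes, 1 coefficient per group, all 9 samples, no filter) because the software named in the methods, nSolver Advanced Analysis, was not run. Tests were two-sided, with Benjamini-Yekutieli adjustment across the 750 genes and a threshold of 0.05. An exact permutation test of 3 samples against 3 cannot go below a two-sided p of 0.1. The fit was tested on simulated data.

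Genes were named as the 20 largest rises and 20 largest falls past the threshold, at 100 normalized counts or more in either group and with separate groups, together with up to 4 passing members per list and direction, their direct partners and markers. The genes, the 22 gene lists and the 6 marker lists were chosen with earlier results of these data known. Runx1, Pou2f2, Tcf7, Egr2, Nfatc1, Irak2, Ripk2, Il18r1, Il18rap, Itga6, Cd69, Vim, Ifnar1 and those non-passing genes that are no direct partner were chosen after their values were seen. Lists are described by counts and medians only. Some genes counted in these totals are not reported here. Of 750 symbols, 736 are current in RefSeq, 8 are synonyms and 6 were not matched. Promoters came from RefSeq (GRCm38.p6).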

Additional observations from a re-analysis of the deposited data

How the results depend on the processing

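Of the 40 strongest genes, 14 kept their call in every setting computed for them, of 21 tried, and none reversed. The count of higher genes against OT-1 alone, 109, was 148 in a fit of only the 6 samples, 13 after centring on the median of all genes, 67 after centring on genes at 100 counts or more, 72 after quantile normalization and 216 with sample weights, whose estimation did not converge, and 75 to 175 when 1 sample was left out. The count of lower genes, 29, was 41 in the 6 samples, 15, 70, 68 and 64 in the same settings, 48 with Benjamini-Hochberg adjustment and 18 to 48 with 1 sample left out. It was 18 without replicate 2 of the co-culture with tumor cells, 18 without OT-1 alone replicate 2, 19 without OT-1 alone replicate 3 and 48 without macrophage replicate 2. Centring on all genes, which removed a shift of 0.51, ended the calls of 20 of the 40, and 3 genes reversed under it, Stat6 (-0.08), Mapk14 (-0.01) and Ifnar1 (-0.05). It also moved macrophage replicate 2, whose all-gene median was 7.8, away from macrophage replicates 1 and 3, at 6.3 and 6.48. This sample enters the shared estimate of spread. Against macrophages only, 20 higher genes became 0 and 12 with the 2 centrings, 37 with values under 100 set to 100, 59 with only genes at 100 counts or more tested, 53 with Benjamini-Hochberg, 52 with a trend and robust fit, 114 with sample weights and 10 to 29 with 1 sample left out, and 4 lower genes became 0 after centring on all genes, 9 with quantile normalization, 8 with only abundant genes tested, 9 with Benjamini-Hochberg, 8 with the trend and robust fit, 17 with sample weights and 1 to 5 with 1 sample left out. The cause of these differences was not tested.

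Replicate numbers are not stated to pair samples. Same-numbered deviations of the co-culture with tumor cells and OT-1 alone correlated at 0.168, 0.264 and 0.094 across genes. With the replicate block, 91 genes were higher and 20 were lower against OT-1 alone, and 9 were higher and 1 was lower against macrophages only.

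Depth limits low genes most. Counting error at 100 normalized counts ran between 8.25% and 11.7% except for macrophage replicate 2, where it was 25.3%.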
